A study of Mus musculus with 4 samples.

Results

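Chromosomes in the nucleus are folded into loops and domains by a small set of proteins. Here 10 of their genes were followed in thymocytes of mice with a conditional deletion of Srsf1, the gene of a splicing factor. The genes were taken by symbol from the deposited tables: Ctcf, Satb1, Smc1a, Smc3, Rad21, Stag1, Stag2, Nipbl, Pds5a and Pds5b, 10 of 53715 annotated genes. All 10 were found and all 10 passed the filter on low counts. Cohesin is a ring made of the ATPase subunits SMC1A and SMC3, closed by the kleisin RAD21 and completed by STAG1 or STAG2. NIPBL loads the ring and drives its movement along DNA as it extrudes loops, PDS5A and PDS5B bind it and regulate its release, and the zinc finger protein CTCF stops it at loop borders. SATB1 binds AT-rich DNA, is abundant in thymocytes, and is known for roles in Rag gene expression and in the setting of T cell fate.

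The libraries came from CD4+CD8+ double-positive (DP) thymocytes of C57BL/6 mice aged 6 to 8 weeks. There were 2 wild-type (WT) libraries and 2 libraries from LCKCre/+ Srsf1fl/fl mice (KO), in which Cre recombinase under an Lck promoter, active from early thymocyte stages, deletes floxed Srsf1. The labels do not say whether the WT mice carried Cre or a floxed allele, or whether replicates came from separate animals, so p-values measure the spread between these libraries, which may be technical. The comparison asked which of the 10 genes differ between KO and WT DP cells.

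Library totals lay between 35862730 and 37033180 counts. Srsf1, the targeted gene, had 4821 and 4485 counts in WT and 1839 and 1772 in KO (log2 fold change -1.39, SE 0.09, edgeR adjusted p = 2.91e-06). The DP markers Cd4, Cd8a and Cd8b1 were each at 926 CPM (counts scaled to the library total) or more in every library. The summed markers of B, myeloid, erythroid and NK cells reached at most 8.88 CPM in any library, and those of thymic epithelium 12.0 CPM, with Krt5 and Foxn1 at 0 counts throughout. The 3 dendritic cell markers (Itgax, H2-Aa and Cd74) summed to 21.6 and 28.5 CPM in WT and 10.9 and 12.8 CPM in KO, and Itgax itself was below 0.84 CPM everywhere. The part of these cells in the results below was not tested. In bulk samples, fewer cells of a type and less RNA per cell cannot be told apart.

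Promoters are given for Pds5b and Smc1a, which rose in KO, and, for comparison, for Smc3, which was not called and lay on the other side of 0; 7 of the 10 genes matched the RefSeq promoter table (GRCm38.p6), and Rad21, Stag2 and Nipbl did not. Each is the 250 bases before the RefSeq start, 5′ to 3′ on the gene's strand. Gene spans elsewhere in the text are those of GENCODE, whose Pds5b starts upstream of the RefSeq start, so the end of that window lies inside the GENCODE gene. The windows are chr5:150673577-150673826 (plus strand) for Pds5b, chrX:152016178-152016427 (plus) for Smc1a and chr19:53600146-53600395 (plus) for Smc3. Capitals mark matches, on either strand, to the CCAAT box, to the GC box GGGCGG and to the ETS factor motif CCGGAAG.
Pds5b: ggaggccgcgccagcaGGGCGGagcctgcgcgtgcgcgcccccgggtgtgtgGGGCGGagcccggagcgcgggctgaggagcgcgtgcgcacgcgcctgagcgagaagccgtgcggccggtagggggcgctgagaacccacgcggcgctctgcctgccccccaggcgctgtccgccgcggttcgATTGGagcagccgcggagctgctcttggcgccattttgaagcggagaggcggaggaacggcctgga
Smc1a: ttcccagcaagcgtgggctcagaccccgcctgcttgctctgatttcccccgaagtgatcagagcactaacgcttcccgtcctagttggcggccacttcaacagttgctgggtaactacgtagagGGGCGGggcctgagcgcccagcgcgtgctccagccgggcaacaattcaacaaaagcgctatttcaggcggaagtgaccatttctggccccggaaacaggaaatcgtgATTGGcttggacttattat
Smc3: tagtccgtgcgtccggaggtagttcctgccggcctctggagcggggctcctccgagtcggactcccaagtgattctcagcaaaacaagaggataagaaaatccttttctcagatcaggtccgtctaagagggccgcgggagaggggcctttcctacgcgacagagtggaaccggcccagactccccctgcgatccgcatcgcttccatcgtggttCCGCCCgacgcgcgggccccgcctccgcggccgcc

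The Pds5b window held 1 CCAAT box and 2 GC boxes, Smc1a had 1 of each, and Smc3 had 1 GC box. Of the matched members not shown, Stag1, which was not called, had 1 CCAAT box and 4 GC boxes. Ctcf and Pds5a, also not called, each had 1 GC box and 0 CCAAT boxes. Satb1 had 0 CCAAT boxes at each of its RefSeq starts, and 3 GC boxes at a single start. Of 32851 promoters of the same length, 33.8% held CCAAT, 32.7% the GC box and 6.91% the ETS motif, which was in none of the 3 windows shown. The Pds5b window was 75.6% G and C with 36 CpG pairs, Smc3 64.4% with 26 and Smc1a 56.8% with 16, against medians of 52.4% and 6 over all promoters. A match describes letters and not a bound site.

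The other sequences lie inside Satb1. The Satb1 gene (chromosome 17, 51736187 to 51833290, minus strand, GRCm38) spans 97.1 kb and contains, within its introns and on its own strand, 4 features of the provisional class TEC in GENCODE mouse release 21. The first 150 bases of the 3 that rose in KO follow, from the GENCODE transcript sequences, with matches to AATAAA, a polyadenylation signal, in capitals on the strand shown. The windows, all on the minus strand, are chr17:51748535-51748684, chr17:51793312-51793461 and chr17:51799041-51799190.
E430014B02Rik: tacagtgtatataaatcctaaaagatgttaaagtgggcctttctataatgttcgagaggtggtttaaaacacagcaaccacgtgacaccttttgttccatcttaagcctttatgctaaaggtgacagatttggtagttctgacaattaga
5830444F18Rik: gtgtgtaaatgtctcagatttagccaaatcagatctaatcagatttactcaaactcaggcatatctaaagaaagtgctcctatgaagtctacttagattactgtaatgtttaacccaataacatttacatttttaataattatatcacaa
Gm37248: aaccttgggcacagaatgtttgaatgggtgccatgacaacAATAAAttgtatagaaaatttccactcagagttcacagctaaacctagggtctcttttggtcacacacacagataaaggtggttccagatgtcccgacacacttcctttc

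Only the Gm37248 window held AATAAA among these 3, and 10.3% of 447 comparable features held it in their first 150 bases. GGAGA, a purine-rich motif of the kind that SRSF1 binds, was counted on the RNA strand over each whole feature. It occurred 0.634 times per kb in E430014B02Rik, 0.945 in Gm37248, 2.01 in 5830444F18Rik and 2.31 in C230085N15Rik, the member of the group that did not pass the test, against a median of 1.07 over the 447 features.

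Per unit length, Satb1 was the most abundant of the 10 genes and Stag1 the least. On the authors' RPKM scale (reads scaled by gene length and library total), the WT means were 217 for Satb1, 79.9 for Ctcf, 79.0 for Rad21, 66.0 for Nipbl, 45.5 for Smc3, 34.6 for Smc1a, 30.6 for Stag2, 16.2 for Pds5a, 15.8 for Pds5b and 10.6 for Stag1. The WT libraries of Ctcf and Rad21 overlapped, and so did those of Pds5a and Pds5b, while the other neighbours in that order did not. Satb1 stood above 99.5% of 21981 protein-coding genes in WT and Stag1 above 78.9%. On this scale the order changed in KO in 3 places, with Rad21 ahead of Ctcf, Smc1a ahead of Smc3 and Pds5b ahead of Pds5a. The KO libraries of the first 2 of these pairs overlapped, and those of Pds5b and Pds5a did not.

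The deposited gene lengths join the exons of all annotated transcripts, retained introns included. They are 19027 bases for Satb1 and 19335 for Pds5a, against longest coding transcripts of 6243 and 8934 bases. Dividing by the longest coding transcript instead gave WT levels of 660 for Satb1, 35.1 for Pds5a and 21.0 for Pds5b, so the near equality of the PDS5 genes depends on the length used. So do 2 of the 3 changes of order. On that length Ctcf stayed ahead of Rad21 in KO (118 and 102) and Pds5a ahead of Pds5b (37.4 and 27.7). Smc1a still passed Smc3, with 42.6 and 52.0 in WT and 53.9 and 43.7 in KO. Fold changes fitted to counts do not depend on it. The fits with a correction for gene length or on RPKM, given below, used the deposited lengths.

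**Figure D1:**
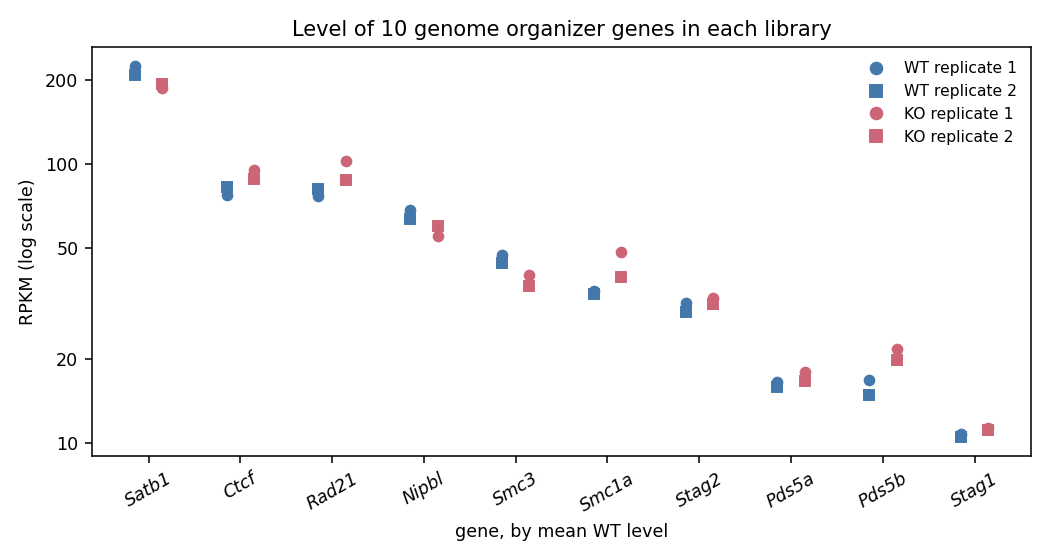
RPKM (log axis) of the 10 genes in each of the 4 libraries, ordered by mean WT level, with circles and squares for replicates 1 and 2 and blue and red for WT and KO. Satb1 lies near 200 and Stag1 near 11 in every library, and Smc1a and Smc3 exchange places between WT and KO.

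Against WT, 3 of the 10 genes rose in KO and 0 fell at an edgeR quasi-likelihood adjusted p under 0.05: Pds5b, Smc1a and Rad21. All 3 changes were small, from 20.4% to 31.8%. Over all 16588 genes tested, 14.5% were called, 6.63% higher and 7.89% lower. Among the 2630 genes that averaged 100 CPM or more, as all 10 do, 35.9% were called, 18.6% higher and 17.3% lower, so the 3 of 10 called is near the share for genes of that abundance. At an unadjusted p under 0.05, 4 of the 10 were higher and 3 lower, against 27.4% of all genes and 52.5% of the abundant ones. DESeq2 called 4 higher and 2 lower, and limma-voom 4 and 3. The median log2 fold change was 0.09 over the 10 and 0.00 over all genes tested.

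In 9 of the 10 genes both KO libraries lay on one side of both WT libraries, 6 above and 3 below, with Stag2 the exception; 55.9% of all tested genes and 74.0% of the abundant ones were also without overlap. The ring subunit Smc3, the loader Nipbl and Satb1 lay below WT, while the ring subunits Smc1a and Rad21, both PDS5 genes, Stag1 and Ctcf lay above.

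**Figure D2:**
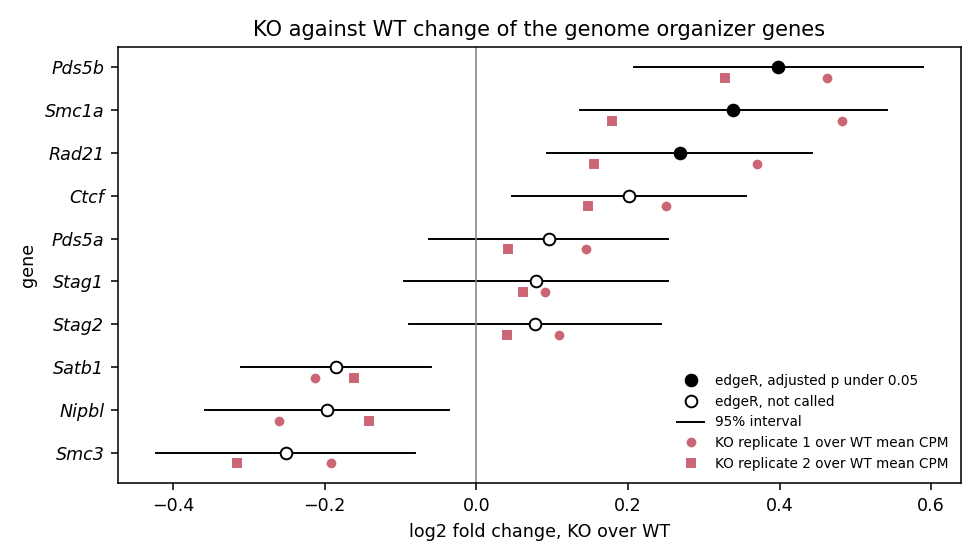
edgeR log2 fold change of each gene (KO over WT, black circles, filled where the adjusted p was under 0.05) with its 95% interval, and each KO library over the WT mean CPM in red. Pds5b, Smc1a and Rad21 are filled at 0.40, 0.34 and 0.27, and Satb1, Nipbl and Smc3 lie between -0.18 and -0.25.

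Among the subunits of the ring, Smc1a rose in KO, while its partner Smc3 lay below WT and was not called. Smc1a (GRCm38 chromosome X, 152016428 to 152062694, plus strand) had 202 and 197 CPM in the WT libraries and 279 and 226 CPM in the KO libraries. Both KO values were above WT, and KO replicate 1 was well above KO replicate 2. The log2 fold change was 0.34 (SE 0.09, edgeR adjusted p = 0.0288). With KO replicate 1 left out it was 0.20 and no longer passed (adjusted p = 0.167).

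Smc3 (chromosome 19, 53600398 to 53645833, plus strand) had 261 and 244 CPM in WT and 221 and 203 CPM in KO. Both KO libraries were below both WT libraries. Its log2 fold change of -0.25 (SE 0.08) just missed the threshold (edgeR adjusted p = 0.0512), and it passed under 6 of the 11 alternatives that kept every library. The RPKM ratio of Smc1a to Smc3, a comparison chosen after the values were seen, was 0.746 and 0.777 in WT and 1.21 and 1.07 in KO. The group difference was 0.58 on the log2 scale, with an exact two-sided permutation p of 0.333, the smallest that 2 against 2 libraries allow.

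Rad21, the kleisin (chromosome 15, 51962240 to 51991747, minus strand), had 325 and 344 CPM in WT and 432 and 372 CPM in KO. As with Smc1a, KO replicate 1 was the highest library. The log2 fold change was 0.27 (SE 0.08, edgeR adjusted p = 0.0423), which no longer passed with KO replicate 1 left out (0.17, adjusted p = 0.195) or with WT replicate 1 left out (0.23, 0.182). KO replicate 1 also had the highest level of Top2a, a topoisomerase of dividing cells, with 282 and 325 CPM in WT, 573 in KO replicate 1 and 424 in KO replicate 2. Other genes of dividing cells were mixed. KO replicate 1 was also the highest library for several, among them Esco2, Espl1, Smc2 and Ncaph. These had 24.7, 43.3, 105 and 64.1 CPM in KO replicate 1 and 15.3, 36.6, 88.8 and 52.3 CPM in KO replicate 2. It was not for the mitotic kinase gene Plk1, with 42.0 and 42.1 CPM in the KO libraries. Nor was it for the securin gene Pttg1, with 22.7 and 23.6 CPM in WT and 15.7 and 16.5 CPM in KO. The part of cell division in the Smc1a and Rad21 values was not tested.

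The STAG subunits, one of which each ring carries, had the smallest fold changes of the 10. Stag1 (chromosome 9, 100597798 to 100959375, plus strand) had 127 and 123 CPM in WT and 134 and 131 in KO, which do not overlap but differ by 5.57% in the fit. Its log2 fold change of 0.08 (95% interval -0.10 to 0.25, edgeR adjusted p = 0.613) did not pass the test. Stag2 (chromosome X, 42149317 to 42277185, plus strand) had 263 and 243 CPM in WT and 273 and 261 in KO, and these ranges overlap. Its log2 fold change was also 0.08 (95% interval -0.09 to 0.24, adjusted p = 0.599). The RPKM ratio of Stag2 to Stag1 was 2.94 and 2.80 in WT and 2.91 and 2.83 in KO, a group difference of -0.00047 on the log2 scale (exact permutation p = 1). The KO values lay between the WT values.

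Among the regulators in the set, Pds5b had the largest fold change and the smallest adjusted p of the 10. The gene (chromosome 5, 150673739 to 150810690, plus strand) had 165 and 146 CPM in WT and 215 and 196 CPM in KO, without overlap. The log2 fold change was 0.40 (SE 0.09, edgeR adjusted p = 0.00953), and leaving out WT replicate 2 brought it to 0.31, past the threshold no longer (adjusted p = 0.0577). Its paralogue Pds5a (chromosome 5, 65605721 to 65698273, minus strand) had 319 and 308 CPM in WT and 346 and 322 in KO, a log2 fold change of 0.10 (95% interval -0.06 to 0.25, adjusted p = 0.455). The RPKM ratio of Pds5a to Pds5b was 0.980 and 1.07 in WT and 0.822 and 0.839 in KO. It was lower in both KO libraries, by 0.31 on the log2 scale, and the exact permutation p was 0.333, the smallest possible here.

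Nipbl, the loader (chromosome 15, 8290617 to 8444463, minus strand), had 644 and 598 CPM in WT and 519 and 564 CPM in KO. The KO libraries were lower without overlap, but the log2 fold change of -0.20 (SE 0.07) did not pass the test (edgeR adjusted p = 0.0999). Ctcf (chromosome 8, 105636568 to 105682922, plus strand) had 375 and 401 CPM in WT and 462 and 430.0 CPM in KO, again without overlap and in the other direction (log2 fold change 0.20, SE 0.07, adjusted p = 0.0815). Ctcf was called with DESeq2 (adjusted p = 0.0449), with limma-voom (0.0408) and with a correction for gene length (0.0448).

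Satb1 had 153082 and 144984 counts in WT and 131675 and 134048 in KO, the deepest coverage of the 10. These are 4269 and 3970.5 CPM in WT and 3556 and 3684 in KO, lower in both KO libraries. The log2 fold change of -0.18 (SE 0.06, 95% interval -0.31 to -0.06), a level 12.0% below WT, just missed the threshold (edgeR adjusted p = 0.0507). It passed with DESeq2 (0.0197) and limma-voom (0.00483) and under 7 of the 11 alternatives that kept every library, but with the correction for gene length it was -0.11 (adjusted p = 0.203).

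Of 4 features in the Satb1 introns, 3 rose in KO. They were looked at after the values were seen, because they are counted as separate genes that overlap Satb1. E430014B02Rik (ENSMUSG00000102973.1, chromosome 17, 51745529 to 51748684) had 3138 and 2650 counts in WT and 5945 and 5647 in KO. Every KO library was far above WT, and the log2 fold change was 0.98 (SE 0.10, edgeR adjusted p = 6.1e-05), near a doubling. This feature lies 84.6 kb from the Satb1 start in a 25.0 kb intron near the 3′ end of the gene, after the 16th of 19 merged exons.

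Gm37248 (51796017 to 51799190) had 591 and 689 counts in WT and 1305 and 1519 in KO, a log2 fold change of 1.13 (SE 0.16, edgeR adjusted p = 0.000765). In the same 16.7 kb intron, 5830444F18Rik (51791470 to 51793461) had 519 and 431 counts in WT and 865 and 1063 in KO, an increase of 100.4% (SE 0.20 log2 units, adjusted p = 0.00542). Neither pair of groups overlapped. C230085N15Rik (51757295 to 51761621), which shares its intron with E430014B02Rik, had 1853 and 1604 counts in WT and 1982 and 2958 in KO. KO replicate 2 was high and KO replicate 1 was close to WT, and the log2 fold change of 0.50 (SE 0.17) did not pass the test (adjusted p = 0.0701). Leaving out 1 library moved C230085N15Rik between 0.16 and 0.78, and it passed without WT replicate 1 (0.63, edgeR adjusted p = 0.00152) and without KO replicate 1 (0.78, 4.61e-05). It also passed with no filter on low counts (0.000602).

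Not everything annotated across Satb1 was higher. Gm36931, which overlaps a Satb1 exon on the same strand, had 1638 and 1202 counts in WT and 1355 and 1796 in KO (log2 fold change 0.13, edgeR adjusted p = 0.732). Gm6934, across the Satb1 start on the opposite strand, had 579 and 564 counts in WT and 548 and 641 in KO (0.04, adjusted p = 0.942). Both pairs of groups overlapped.

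Taking the 4 intronic features with Satb1 itself, the features held 3.83% of the counts in WT replicate 1 (95% exact binomial interval 3.74 to 3.93) and 3.57% in WT replicate 2 (3.48 to 3.67). They held 7.12% in KO replicate 1 (6.99 to 7.26) and 7.70% in KO replicate 2 (7.57 to 7.84). The share was about 2 times as large in both KO libraries, and these intervals cover counting error only. The strand setting of the counting is not given in the sources used here. Reads from a separate transcript and from unspliced or alternatively processed Satb1 RNA cannot be told apart in gene counts.

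**Figure D3:**
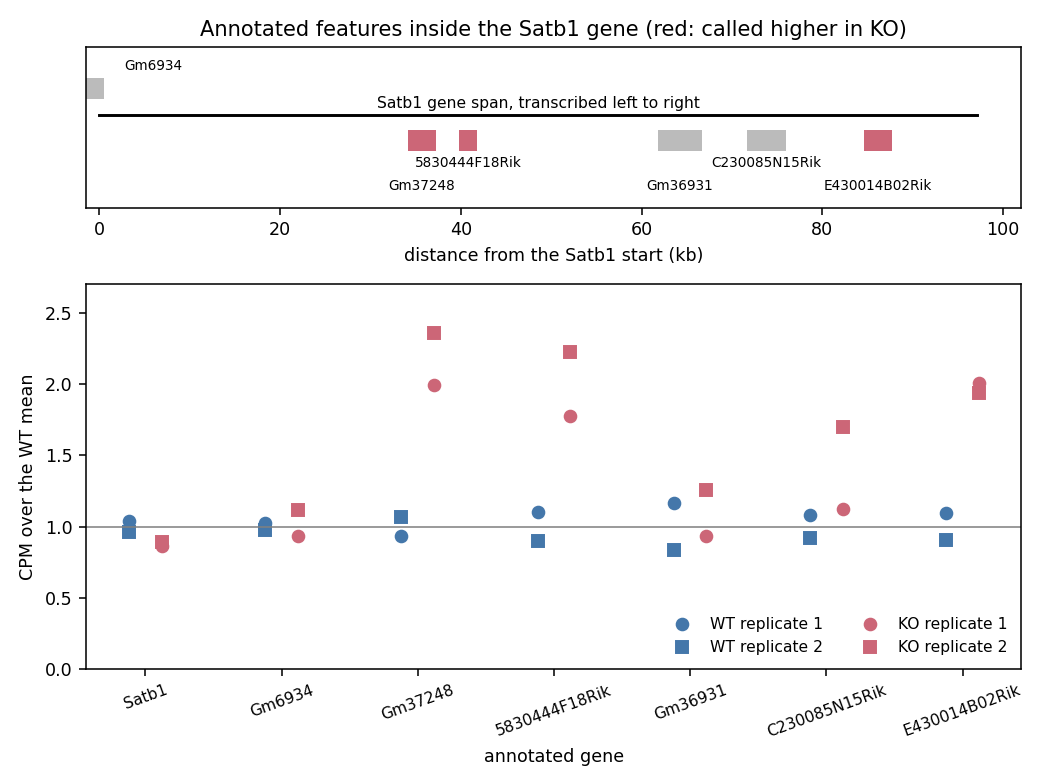
Upper panel, annotated features along the Satb1 gene by distance from its start in kb, with features called higher in KO in red and Gm6934 on the opposite strand. Lower panel, CPM of Satb1 and of each feature over its WT mean in the 4 libraries: both KO libraries are below 1 for Satb1 and between 1.7 and 2.4 for the 3 red features.

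The same class of feature was then counted in other genes. Of 447 tested TEC features that lie in same-strand introns of protein-coding genes, without touching an annotated exon of the host, 4 were higher in KO (0.895%) and 12 lower (2.68%), with a median log2 fold change of -0.21. Of the 4 that were higher, 3 were the Satb1 features. Only 21 of the 447 averaged 10 CPM or more, and E430014B02Rik was the most abundant of them all. Among these 21, 3 were higher (14.3%) and 2 lower (9.52%), and the 3 were again those of Satb1. The median log2 fold change of these 21 was 0.09, the opposite sign to that of the 447. The feature minus host difference had a median of -0.10 log2 units over the 447 and 0.31 over the 21. In the introns of other members, the same class of features had at most 96 counts in any library (2 in Pds5a and 3 in Stag1), and 0 of these 5 passed the test.

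**Figure D4:**
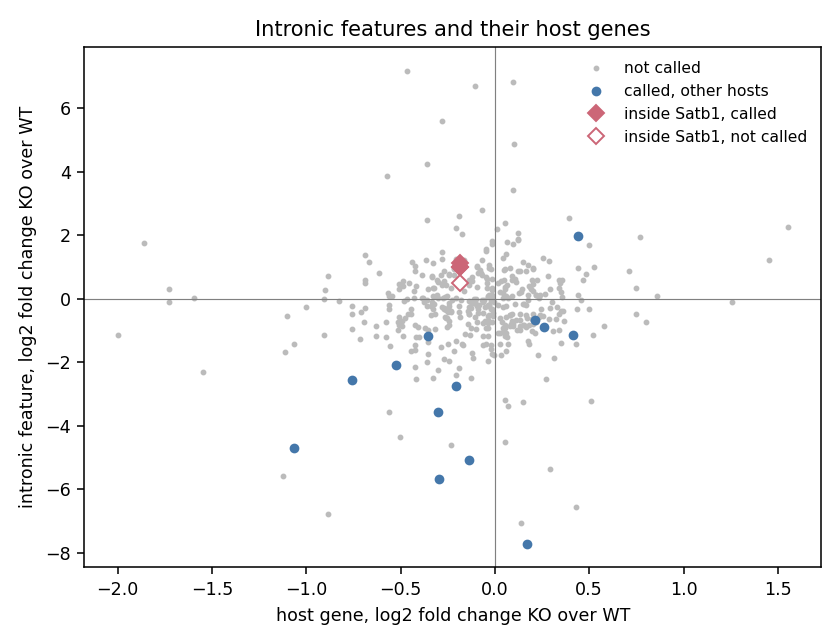
Log2 fold change (KO over WT) of 447 intronic TEC features against that of their host genes. The 3 called Satb1 features (filled diamonds) sit near 1 and the other at 0.50, with the host at -0.18, and most other called features (blue) lie below 0.

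Of 11 tested cohesin regulators, 1 rose and 0 fell with edgeR, where 6.63% of all genes rose and 7.89% fell, and DESeq2 gave the same counts. At an unadjusted edgeR p under 0.05, 2 were higher and 2 lower. Plk1, a mitotic kinase that helps remove cohesin from chromosome arms, rose from 22.6 ± 1.92 to 42.1 ± 0.0595 CPM (SD, n = 2; log2 fold change 0.90, SE 0.14, edgeR adjusted p = 0.00139). The release factor Wapl had 348 ± 22.7 CPM in WT and 303 ± 6.40 in KO (-0.20, adjusted p = 0.101), and Mau2, the partner of NIPBL in the loader, 277 ± 14.6 and 246 ± 16.3 CPM (-0.17, adjusted p = 0.208). The acetyltransferases that lock cohesin on DNA were Esco1 (-0.13, adjusted p = 0.342) and Esco2 (0.48, 0.216), and the deacetylase was Hdac8 (0.31, 0.455). Leaving out 1 library moved Esco2 between 0.11 and 0.78, the latter called without KO replicate 2 (edgeR adjusted p = 0.0208), and Hdac8 between 0.022 without WT replicate 2 and 0.69 without WT replicate 1. Of the genes that protect or open cohesin in mitosis, Cdca5 (0.09, adjusted p = 0.808), Sgol1 (0.15, 0.712), Sgol2a (-0.29, 0.571), the separase Espl1 (0.31, 0.176) and the securin Pttg1 (-0.52, 0.0701) did not pass the edgeR test.

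Germline cohesin genes were low. Smc1b had 3 to 18 counts and Rad21l at most 1 in any library, and both were below the filter. Rec8 had 7.72 ± 2.21 CPM in WT and 6.77 ± 0.951 in KO, and Stag3 2.95 ± 0.392 and 3.95 ± 0.242 CPM (SD, n = 2), and neither was called by edgeR. Ctcfl, the germline relative of Ctcf, had at most 10 counts.

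Other SMC complexes were also examined. Of 14 genes of condensin, which compacts mitotic chromosomes, and of SMC5/6, which acts in DNA repair, 7 rose, 1 fell and 6 were not called, and the median log2 fold change was 0.37. Over all genes tested 6.63% rose and 7.89% fell, with a median of 0.00, and among those at 100 CPM or more 18.6% rose and 17.3% fell. Of those that rose, the smallest adjusted p were those of the condensin genes Smc2 (0.75, SE 0.10, edgeR adjusted p = 0.00057), Smc4 (0.48, SE 0.07, 0.000745) and Ncapd2 (0.55, SE 0.09, 0.00202). Smc2 went from 56.6 and 59.1 CPM in WT to 105 and 88.8 CPM in KO, and Smc4 from 507 and 481 to 722 and 659 CPM. Ncapd3 of condensin II fell (-0.40, SE 0.09, adjusted p = 0.0136) and Nsmce4a of SMC5/6 rose (0.38, SE 0.09, 0.0167). Leaving out WT replicate 1 took Ncapd3 past 0.05 (0.0829), and leaving out WT replicate 2 did so for Nsmce4a (0.106). Without KO replicate 1, 4 of the 14 rose. As with Smc1a and Rad21, KO replicate 1 was the higher of the KO libraries for Smc2, Smc4 and Ncapd2, and the part of cell division was not tested.

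Of 12 tested genes for partners of CTCF and other architectural DNA-binding proteins, 3 rose, 2 fell and 7 were not called, with a median of 0.16. Over all genes tested 14.5% were called. The share called here is close to the 35.9% among all genes at 100 CPM or more, a level that Zfp143 and Adnp did not reach. Top2a (log2 fold change 0.72, SE 0.12, edgeR adjusted p = 0.00168), Zfp143 (0.70, SE 0.15, 0.00739) and Top2b (0.26, SE 0.07, 0.0307) rose. ZFP143 binds promoters at loop anchors, and TOP2B, a topoisomerase also found at loop anchors, is made in dividing and resting cells. Brd2, a reader of acetylated histones, fell from 1165 and 1141 to 875 and 978 CPM (-0.31, SE 0.07, adjusted p = 0.0106), and Vezf1 fell too (-0.27, SE 0.08, 0.0307). Top2b no longer passed when WT replicate 1 (0.179) or KO replicate 1 (0.103) was dropped. Vezf1 did not pass when either WT library (0.0834 and 0.189) or KO replicate 1 (0.0803) was dropped. Yy1 (0.17, adjusted p = 0.148), Maz (0.24, 0.0692) and Ldb1 (0.20, 0.18), also known for roles in looping, did not pass.

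Of 12 tested genes of the nuclear matrix and lamina or related to Satb1, 3 rose, 1 fell and 8 were not called, with a median of 0.13. Over all genes tested 14.5% were called, and 35.9% among those at 100 CPM or more. Of the called genes here, only Tmpo averaged 100 CPM or more, and Lmna, Lmnb2 and Banf1 were below that level. Lmna, which encodes the A-type lamins, fell from 35.9 and 37.2 CPM to 12.0 and 13.1 CPM (log2 fold change -1.54, SE 0.17, edgeR adjusted p = 9.5e-05), the largest change in this list. The lamina-associated polypeptide gene Tmpo (0.50, SE 0.07, 0.000666), the B-type lamin gene Lmnb2 (0.52, SE 0.11, 0.00776) and Banf1, which links DNA to the envelope (0.39, SE 0.11, 0.0348), rose. Banf1 did not pass when WT replicate 1 (adjusted p = 0.2) or KO replicate 1 (0.149) was dropped, or with the length offset (0.0658), and without KO replicate 2, 5 genes of the list rose. Lmnb1, the other B-type lamin gene (0.17, adjusted p = 0.139), and Lbr, the lamin B receptor (0.20, 0.0875), did not pass.

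Of 12 thymocyte genes reported to depend on Satb1 or on cohesin, 4 rose, 1 fell and 7 were not called, with a median of 0.31, beside 14.5% called over all genes and 35.9% among abundant ones. The recombinase genes Rag1 and Rag2 rose with the coreceptor genes Cd8a and Cd8b1. Cd8a did not pass when either WT library (adjusted p = 0.115 and 0.219) or KO replicate 1 (0.064) was dropped. Rag2 went from 21.2 and 22.0 CPM in WT to 47.2 and 48.6 CPM in the KO libraries (1.15 on the log2 scale, SE 0.14, edgeR adjusted p = 0.000206), and the transcription factor gene Runx3 fell from 32.2 ± 4.45 to 17.6 ± 3.61 CPM (SD, n = 2; -0.87, SE 0.19, 0.00834). Trac, the constant segment of the T cell receptor alpha locus whose transcription cohesin is known to influence, had 424 ± 0.648 and 391 ± 3.80 CPM (-0.12, adjusted p = 0.305), and its neighbour Dad1 had 72.6 ± 0.266 and 76.8 ± 4.32 CPM (0.08, 0.673). Zbtb7b (0.37, adjusted p = 0.57), Il2ra (0.47, 0.298), Il7r (0.84, 0.122) and Foxp3 (0.24, 0.933) were low in all libraries and were not called. Cd4, which is abundant, was also not called, with 1233 ± 33.1 CPM in WT and 1383 ± 6.15 in KO (0.17, edgeR adjusted p = 0.0836). DESeq2 and limma-voom each called 5 genes of this list higher.

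**Figure D5:**
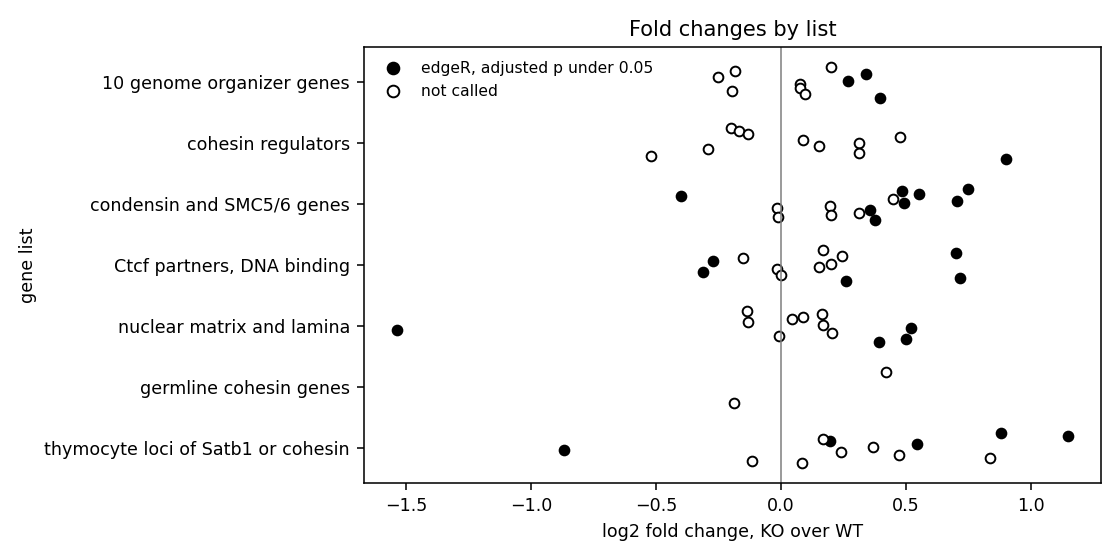
Log2 fold change (KO over WT) of the 10 genome organizer genes and of each tested gene in the 6 lists, filled where the edgeR adjusted p was under 0.05. The 10 genes lie between -0.25 and 0.40, and Lmna at -1.54 and Rag2 at 1.15 are the extremes of the lists.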

How the data were processed

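Gene counts per library and an RPKM table with gene lengths were deposited by the authors; the submitters' processing notes list GRCm38 (mm10), STAR 2.6.0a, cutadapt 1.17, HTSeq 0.6.1, FastQC 0.11.5 and DESeq2 1.24.0, with no roles. Neither annotation release nor strand setting is given in the sources used here. Each deposited RPKM value above 0 equals the count over length and library total, within a relative tolerance of 1e-06. Of 53715 gene identifiers, 53620 matched GENCODE mouse release 21, which gave positions and the names of the features inside Satb1.

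Counts were tested with edgeR 4.0.16 (quasi-likelihood, robust, TMM factors of 0.993 to 1.01, filterByExpr, genotype only) in R 4.3.3, with Benjamini-Hochberg adjustment over 16588 genes. CPM were counts over the library total. The SE is the log2 fold change over the root of F. Alternatives used other factors and filters, DESeq2 1.42.0, limma-voom and limma on log2 RPKM (limma 3.58.1), a replicate block, a length offset, and each library left out. On data simulated for KO against WT over 16588 genes, with 50 genes above 100 CPM changed at each size, edgeR called 0% of changes of 0.2 log2 units, 10% at 0.3, 28% at 0.4 and 88% at 0.6. That simulation made 69 calls in all, 6 of them on unchanged genes, against 2408 in the data. Its rates therefore do not give the share missed here. Members and lists were chosen with earlier results of these data known. Named genes were all 10 members, Srsf1, all cohesin regulators, up to 5 called genes per other list and some uncalled ones. Smc1a over Smc3, the Satb1 features and the uncalled genes of longer lists were named after their values were seen. 1 count was worth 0.027 to 0.0279 CPM. Figures used matplotlib 3.10.9.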

Additional observations from a re-analysis of the deposited data

How the results depend on the processing

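Direction held for all 10 members under the 15 alternatives, and Srsf1 and the 3 Satb1 intron features stayed called in each. Of the members not called, 4 had an adjusted p between 0.05 and 0.1. Satb1 passed with library size only (-0.19, adjusted p = 0.0398), RLE factors (-0.19, 0.0493), a mean of at least 1 CPM (-0.19, 0.0202), no filter (-0.18, 0.032), DESeq2 (-0.19, 0.0197), limma-voom (-0.18, 0.00483) and the replicate block (-0.18, 0.0141). Smc3 passed with the first 6 of these (-0.25, 0.0498; -0.25, 0.0498; -0.26, 0.0252; -0.25, 0.0291; -0.25, 0.0252; -0.25, 0.032). Ctcf passed with DESeq2 (0.20, 0.0449), limma-voom (0.20, 0.0408) and a length offset (0.23, 0.0448), and Nipbl with limma-voom (-0.20, 0.0446). Members called lower were therefore 2 with 5 of these settings, 3 with limma-voom and 1 with the block. Limma on log2 RPKM with pseudocounts of 0.5 and 0.1 called 398 and 392 genes higher and 542 and 553 lower, and 0 members higher: Smc1a 0.33 (adjusted p = 0.149 and 0.152), Rad21 0.26 (0.154 and 0.157) and Pds5b 0.39 and 0.40 (0.0856 and 0.0883). In both, 2 condensin and SMC5/6 genes were higher and 0 lower, 0 CTCF partners were higher and 0 lower, and 0 thymocyte genes were lower. With a mean of at least 1 CPM, 1 cohesin regulator was lower. The cause of these shifts was not tested.

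Leaving out 1 library at a time gave 1 to 4 members higher and 0 to 2 lower, cohesin regulators higher 1 to 2, condensin and SMC5/6 genes higher 4 to 10 and lower 0 to 1, CTCF partners lower 1 to 2, and nuclear matrix genes higher 2 to 5. An arm left with 1 library is assumed to vary like the other. Fold changes ranged from 0.16 to 0.25 for Ctcf, -0.23 to -0.12 for Satb1, 0.20 to 0.48 for Smc1a, -0.30 to -0.19 for Smc3, 0.17 to 0.37 for Rad21, -0.26 to -0.12 for Nipbl and 0.31 to 0.50 for Pds5b. The Stag2 to Stag1 difference turned to 0.034 without WT replicate 1 and 0.019 without KO replicate 2 (range -0.035 to 0.034). Without KO replicate 1, Cdca5 turned (-0.076, range -0.076 to 0.25) and so did Sgol1 (-0.16, range -0.16 to 0.43). Replicate numbers share only a number: deviations of same-numbered libraries correlated at -0.041, and the replicate block called 2809 genes, 2341 of them among the 2408, and C230085N15Rik (0.47, adjusted p = 0.00207). With a length offset, 1212 genes were higher and 1211 lower, against 1100 and 1308.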
